A study of Mus musculus with 6 samples.

Results

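Hepcidin and the main proteins of hepatic iron handling were followed in mouse liver through 10 genes, namely Hamp, Hamp2, Tfrc, Tfr2, Trf, Fth1, Ftl1, Slc40a1, Hfe and Bmp6. Members were taken by gene name, with every probe that carries the name. On the array they had 12 of the 41174 probes other than control spots, 1 probe each for 8 genes and 2 each for Hfe and Bmp6. The array design lists 2 of them under older symbols, Hamp as Hamp1 and Tfr2 as Trfr2. The livers came from SIRT1 LKO mice, in which the NAD-dependent deacetylase SIRT1 had been deleted in the liver, and from Lox control mice. In both groups the animals were male, 10 weeks old, of 95% C57BL/6 background and on chow with food and water always at hand, and livers were taken at 4 pm. RNA from 2 mice was pooled per array, which gave 3 pools for the 6 mice of each genotype. Neither the promoter behind the deletion nor the exons removed by it is given in the sources used here. Animals inside a pool cannot be told apart, so that p-values rest on the spread between pools. In the limma fits, the SE and p of a probe use its own spread moderated by that of all tested probes.

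Hepcidin is a small peptide hormone of hepatocytes that lowers iron in plasma by binding ferroportin, the iron exporter encoded by Slc40a1, and causing its degradation. Its gene, Hamp, is controlled in hepatocytes by BMP6 from sinusoidal endothelial cells through receptor-activated SMAD proteins, by a sensing complex that involves HFE and transferrin receptor 2, and by inflammation through IL-6 and STAT3. Transferrin carries iron in plasma, transferrin receptor 1 (Tfrc) takes it up, and ferritin, built of heavy (Fth1) and light (Ftl1) chains, stores it. Mice have a second hepcidin gene, Hamp2, whose product does not have the iron-lowering activity of that of Hamp. Transcripts of Tfrc, the ferritin chains and ferroportin are also regulated by iron through iron regulatory proteins, at the level of RNA stability or translation, so that a transcript level does not give the amount of the protein.

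The 2 hepcidin genes lie close together on chromosome 7, and their probes are shown here because their likeness bears on how far the 2 signals can be separated. Coordinates of probes follow the file headers and are on mm7. Exons are left out for lack of a genome of that build here. The Hamp probe A_52_P669922 lies at chr7:27882251-27882310 and the Hamp2 probe A_52_P21486 at chr7:27862281-27862340, both on the minus strand. Both sequences run 5′ to 3′ as in the files, with capitals for the letters that differ when the Hamp2 probe is set 1 base further along the Hamp probe.
Hamp probe: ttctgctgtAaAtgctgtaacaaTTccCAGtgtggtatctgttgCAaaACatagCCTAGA
Hamp2 probe: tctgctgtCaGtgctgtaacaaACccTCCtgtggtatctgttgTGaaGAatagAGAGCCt
Over the 59 bases that overlap, 42 were identical and 17 differed, and the longest identical run was 14 bases. Cross-hybridisation between the 2 transcripts was not tested.

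The promoters are shown because hepcidin is known for a BMP response element and a neighbouring STAT site. They are the 250 bases before the RefSeq transcript start on GRCm38.p6, minus strand, at chr7:30944030-30944279 for Hamp and chr7:30924182-30924431 for Hamp2. Capitals mark GGCGCC, the core of the BMP response element, and TTCTTGGAA, the STAT site, searched on both strands. The 2 motifs do not overlap each other.
Hamp promoter: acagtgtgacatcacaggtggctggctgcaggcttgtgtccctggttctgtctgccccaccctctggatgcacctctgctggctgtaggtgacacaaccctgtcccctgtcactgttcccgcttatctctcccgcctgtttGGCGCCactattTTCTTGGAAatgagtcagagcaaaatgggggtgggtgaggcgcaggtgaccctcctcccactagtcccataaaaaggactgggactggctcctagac
Hamp2 promoter: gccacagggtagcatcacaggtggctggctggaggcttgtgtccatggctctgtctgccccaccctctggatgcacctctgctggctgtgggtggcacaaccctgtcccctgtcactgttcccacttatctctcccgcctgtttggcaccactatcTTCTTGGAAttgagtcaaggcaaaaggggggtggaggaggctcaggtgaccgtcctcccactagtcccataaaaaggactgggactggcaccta
The 2 windows were 91.9% identical over aligned bases. Hamp held GGCGCC once, starting 109 bases before the transcript start, and TTCTTGGAA once, starting 97 bases before it. Hamp2 held the STAT site, starting 94 bases before its start, and no GGCGCC. The aligned letters in Hamp2 were GGCACC, which is the substitution G4A counted from 1 at the 5′ end of the element. Of 32851 promoter windows of this length, 9.586% held GGCGCC and 0.365% held TTCTTGGAA. A match describes letters and not a bound site.

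The arrays were 1-colour Agilent whole mouse arrays. The share of probes well above background was 52.2% to 66.4% across arrays, and the 75th percentile of the intensity was 1289 in LKO pool 3 and 1005 to 1056 in the others. LKO pools 1 and 2 shared a slide, LKO pool 3 was on another and the 3 control pools shared a slide of their own, so that slide and genotype cannot be told apart within any slide. A value table was deposited beside the scanner files. Its intensities matched those files to within 1% for 0.853% of probes in LKO pool 3 and for 99.8% in each other pool. Member differences are therefore also given with the value table and without this pool, as are those of some other genes. The brighter Sirt1 probe lay at -0.07, 0.09 and 0.16 in the LKO pools, against 0.29, 0.37 and 0.24 in the control pools (log2 difference -0.24, adjusted p = 0.243). The other Sirt1 probe overlapped between the groups (difference -0.02, adjusted p = 0.941), and since the deleted exons are not known here neither probe checks the labels. Hepatocyte markers averaged 6.78 to 6.99 in the LKO pools and 6.72 to 6.92 in the control pools over the 7 tested of 8. Levels are given as the log2 of the intensity over that array's 75th percentile, and differences are LKO minus control on that log2 scale. A level is comparable between pools for 1 probe, not between probes.

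None of the 10 genes differed between SIRT1 LKO and control livers past the threshold. Of the 12 probes 0 passed an adjusted p of 0.05 in limma, where 15 of all 23593 tested probes (0.0636%) did. At an unadjusted p under 0.05 there were 3 of the 12, against 21.2% of all tested probes. The median difference over the 12 probes was 0.02, as it was over all tested probes, with 6 estimates higher and 6 lower in LKO livers. In 3 probes the 3 LKO values lay wholly above (Ftl1) or wholly below (Slc40a1 and 1 Hfe probe) the 3 control values, against 28.8% of all tested probes. The smallest adjusted p among the 12 was 0.0952. Without LKO pool 3 it was 0.0661, where 0.0% of 24506 tested probes passed. The value table gave 0.0727, where 1.31% of all tested probes passed, and 5 of the 12 probes did not overlap there against 34.0% of all tested probes.

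**Figure D1:**
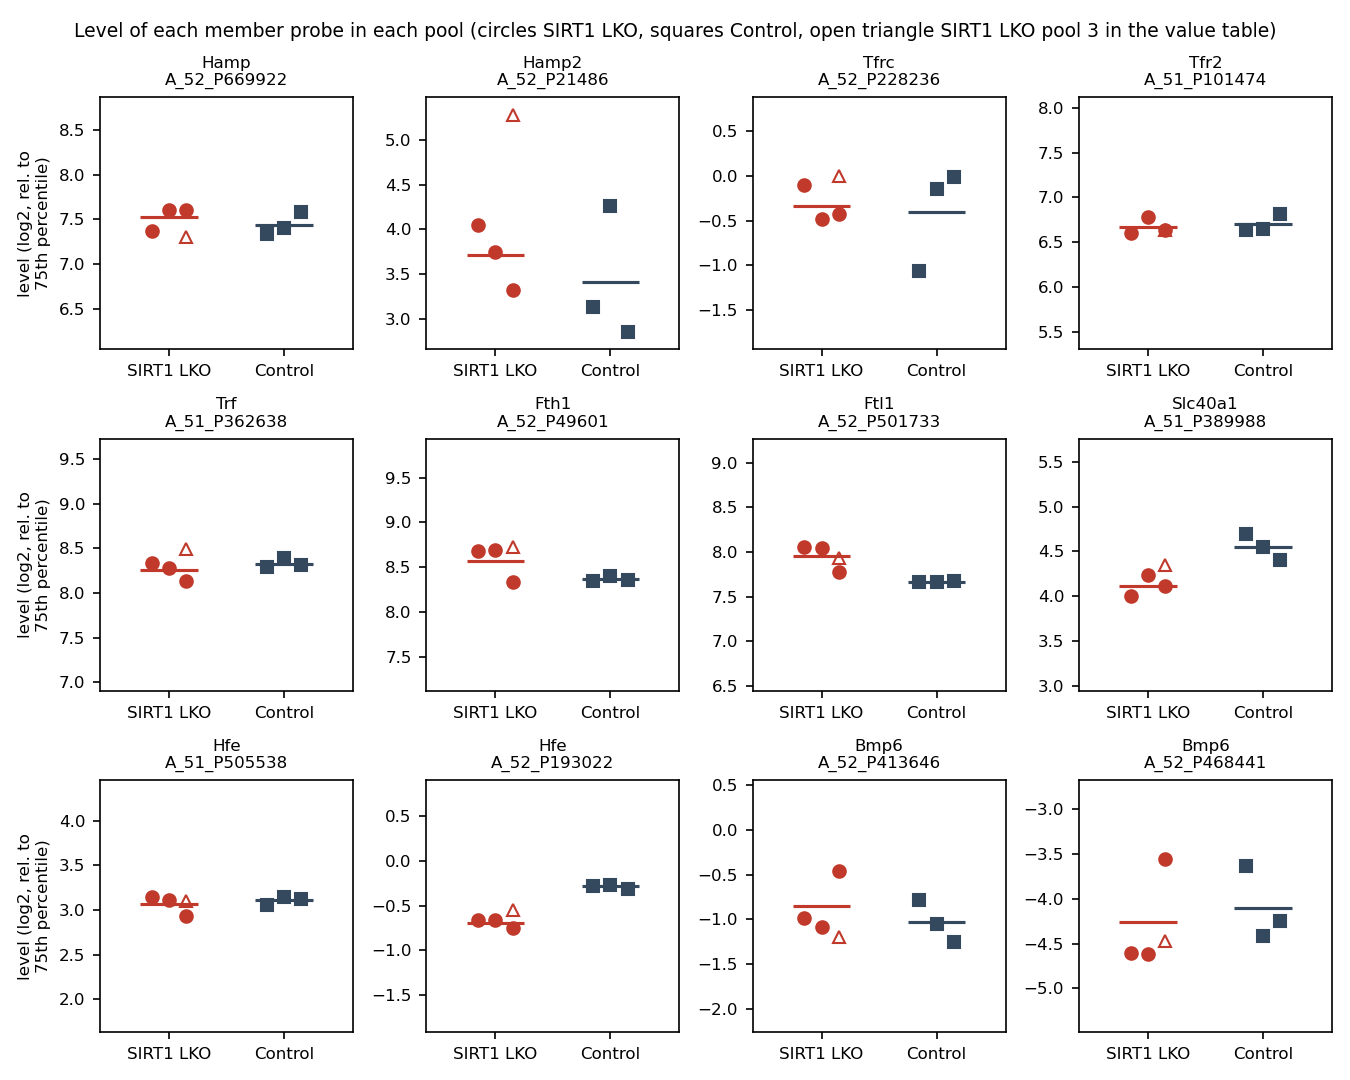
Level of each of the 12 probes (log2 of the intensity over that array's 75th percentile, every panel spanning the same number of log2 units) in the 3 SIRT1 LKO pools (circles) and the 3 control pools (squares), with group means as lines and LKO pool 3 of the deposited value table as an open triangle. LKO and control points are separate for Ftl1, Slc40a1 and Hfe probe A_52_P193022, and the triangle stands apart for Hamp2 at 5.28.

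Hamp, the hormone gene, lay at 7.37, 7.61 and 7.61 in LKO pools 1 to 3, against 7.34, 7.40 and 7.58 in control pools 1 to 3. The groups overlapped, and the 6 pools spanned 0.27 log2 units in all. In processed intensity before scaling the same spots read 167215, 198162 and 251462 in LKO livers, against 166824, 169855 and 202056 in control livers. LKO pool 3 was the brightest of these, on the array that also had the highest 75th percentile. The means were 7.53 ± 0.13 and 7.44 ± 0.13 in LKO and control livers (SD, n = 3 each), a difference of 0.09 (SE 0.12, adjusted p = 0.69). As a ratio this is 1.06-fold with a 95% interval of 0.88 to 1.29, so the 3 pools of each group leave room for changes up to about that size in either direction. With the value table the difference was -0.01 and LKO pool 3 stood at 7.30. Without that pool it was 0.05.

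Hamp2 varied more from pool to pool. Its levels were 4.05, 3.75 and 3.32 in LKO livers, against 3.13, 4.26 and 2.85 in control livers. Control pool 2 was the highest of the 6 and control pool 3 the lowest, so that the LKO values lay inside the control range, and the 6 pools spanned 1.40 log2 units. The difference was 0.29 (SE 0.38, 95% interval -0.63 to 1.21, adjusted p = 0.695). The deposited sources differed most here among the 12 probes. LKO pool 3 stood at 5.28 in the value table, 1.96 above its scanner value, which put the difference at 0.94 (adjusted p = 0.285). Without this pool it was 0.48, and without control pools 2 and 3 in turn it was 0.71 and 0.01.

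By likeness over the 6 pools, the genes nearest to Hamp among 16391 probes with a reference symbol were Trem2 (Pearson r 0.992), Mllt11 (0.983), Gpatch2l (0.975), Pkd1 (0.965) and Timm17a (0.960). Trem2, a receptor of macrophages, lay at -2.12, -1.80 and -1.81 in LKO livers, against -2.19, -2.12 and -1.79 in control livers. With 6 points on shared arrays and this many probes ranked, these r are a description of the pools.

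Upstream of Hamp, Tfr2, transferrin receptor 2, a hepatocyte sensor of iron-loaded transferrin, lay at 6.60, 6.78 and 6.64 in LKO livers, against 6.64, 6.65 and 6.82 in control livers. The groups overlapped, the difference was -0.03 (SE 0.10, adjusted p = 0.883), and the ratio was 0.98-fold with a 95% interval of 0.82 to 1.16.

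Hfe, the MHC class I-like protein whose loss causes hemochromatosis, was read by 2 probes that differed from each other. The probe of its RefSeq transcript, A_51_P505538 at chr13:23069855-23069914, lay at 3.15, 3.11 and 2.93 in LKO livers, against 3.06, 3.14 and 3.12 in control livers. These values overlapped (difference -0.04, SE 0.10, adjusted p = 0.825). The other probe, A_52_P193022 at chr13:23068401-23068460, is annotated in the file to a long form of the 3′ UTR. Both are on the minus strand of mm7. The long-form probe lay at -0.66, -0.66 and -0.75 in LKO livers, against -0.28, -0.27 and -0.31 in control livers. All 3 LKO values were below all 3 control values, the gap between the groups was wider than the spread within either, and 13.9% of all tested probes were separated in this direction. The means were -0.69 ± 0.05 and -0.29 ± 0.02 in LKO and control livers, 1.32-fold lower in LKO (difference -0.40, SE 0.09, 95% interval -0.61 to -0.20, unadjusted p = 0.00259 in limma), and the adjusted p of 0.0952 missed the threshold. The value table gave -0.34 (adjusted p = 0.074), and leaving out LKO pool 3 gave -0.38 (adjusted p = 0.0667).

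The gap between the Hfe probes was also taken within each array, a comparison chosen after the values were seen. The long-form probe minus the RefSeq probe gave -3.81, -3.77 and -3.68 in LKO livers, against -3.35, -3.41 and -3.43 in control livers. The groups did not overlap and the gap differed by -0.36. An exact permutation test on this gap gave p = 0.1, the smallest it can give with 3 pools a group. Any gap without overlap gives this p, so it adds nothing to the separation. How often the probes of other genes part in this way was not counted. The gap is therefore given as a description, and neither Hfe probe passed by itself. With LKO pool 3 from the value table that pool's gap was -3.66. Such a gap does not give the share of either transcript form.

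Bmp6, the endothelial ligand that drives Hamp, was read by 2 probes, the first well above background on all 6 arrays and the second dim. Its probe A_52_P413646 at chr13:37918503-37918562 (mm7, plus strand) lay at -0.99, -1.09 and -0.46 in LKO livers, against -0.78, -1.05 and -1.25 in control livers. LKO pool 3 was the highest of the 6 and the groups overlapped (difference 0.18, SE 0.20, adjusted p = 0.644). That pool stood at -1.20 in the value table, which put the difference at -0.07, and without it the difference was -0.01. The second probe, A_52_P468441, has coordinates spanning 15144 bases for 60 bases of sequence and so crosses an intron. It lay at -4.61, -4.62 and -3.55 in LKO livers, against -3.63, -4.42 and -4.25 in control livers, and was well above background on 3 LKO and 2 control arrays. It differed by -0.17 (SE 0.34, adjusted p = 0.812) as reported, and by -0.47 with the value table, where its LKO values lay wholly below those of the controls, as for 14.9% of all tested probes. The 12 tested sinusoidal endothelial markers of a list of 12 averaged 1.02 to 1.27 in LKO pools and 0.96 to 1.17 in control pools, with 0 past the threshold.

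Among the effectors, Slc40a1 showed the lowest estimate. Ferroportin, its product, exports iron from hepatocytes and from the Kupffer cells that recycle red cells. The probe A_51_P389988, at chr1:46145061-46145120 on the minus strand of mm7, lay at 4.00, 4.24 and 4.11 in LKO livers, against 4.70, 4.55 and 4.40 in control livers. The highest LKO pool was below the lowest control pool, and 13.9% of all tested probes were separated in this direction. The means were 4.12 ± 0.12 and 4.55 ± 0.15 in LKO and control livers, 1.35-fold lower in LKO (difference -0.43, SE 0.12, 95% interval -0.71 to -0.15, unadjusted p = 0.00939 in limma), with an adjusted p of 0.129 that missed the threshold. The direction was kept in all 17 alternatives, over a range of -0.57 to -0.35, with adjusted p of 0.0873 to 0.731. LKO pool 3 stood at 4.35 in the value table, still below the lowest control pool, and without it the difference was -0.43.

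Kupffer cell and macrophage markers were read beside ferroportin because those cells express it. Of the 11 tested of 11, 10 estimates were lower in LKO livers and 0 passed, with list means of 1.58 to 1.84 in LKO pools and 1.43 to 2.21 in control pools, which overlapped. Without LKO pool 3, 5 estimates were higher and 6 lower. In the table of deposited values, 10 of the 11 were higher, where Slc40a1 differed by -0.35. The part of these cells in the Slc40a1 values was not tested, and in whole liver fewer cells of a type and less RNA per cell cannot be told apart.

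Ferritin transcripts had the opposite sign. Ftl1, the light chain, lay at 8.05, 8.04 and 7.78 in LKO livers, against 7.66, 7.66 and 7.68 in control livers. The 3 LKO values were above the 3 control values, with LKO pool 3 nearest to them, and 14.9% of all tested probes were separated upward. The means were 7.96 ± 0.16 and 7.67 ± 0.01 in LKO and control livers, a ratio of 1.22-fold (difference 0.29, SE 0.11, 95% interval 0.03 to 0.55, unadjusted p = 0.0339 in limma), and the adjusted p of 0.202 missed the threshold. The value table gave 0.34 (adjusted p = 0.0736), and leaving out LKO pool 3 gave 0.38 (adjusted p = 0.0661). With normexp background correction of the raw spot signal it was 0.05 (adjusted p = 0.956).

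Fth1, the heavy chain with the ferroxidase activity, lay at 8.68, 8.69 and 8.33 in LKO livers, against 8.35, 8.40 and 8.36 in control livers. LKO pools 1 and 2 were above the controls and LKO pool 3 was below them (difference 0.20, SE 0.12, adjusted p = 0.401). In the value table LKO pool 3 stood at 8.72, which placed the 3 LKO values above the controls (difference 0.33, adjusted p = 0.0727), as for 19.1% of all tested probes. Leaving out LKO pool 3 gave 0.31 (adjusted p = 0.085), and normexp gave 0.08 (adjusted p = 0.953). Both ferritin chains have processed copies in the genome, and a signal from such copies cannot be told apart from that of the gene here. The probe of Ftl2, a close copy of Ftl1, lay at 8.22, 8.14 and 7.85 in LKO livers, against 7.78, 7.90 and 7.90 in control livers (difference 0.21, adjusted p = 0.38).

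**Figure D2:**
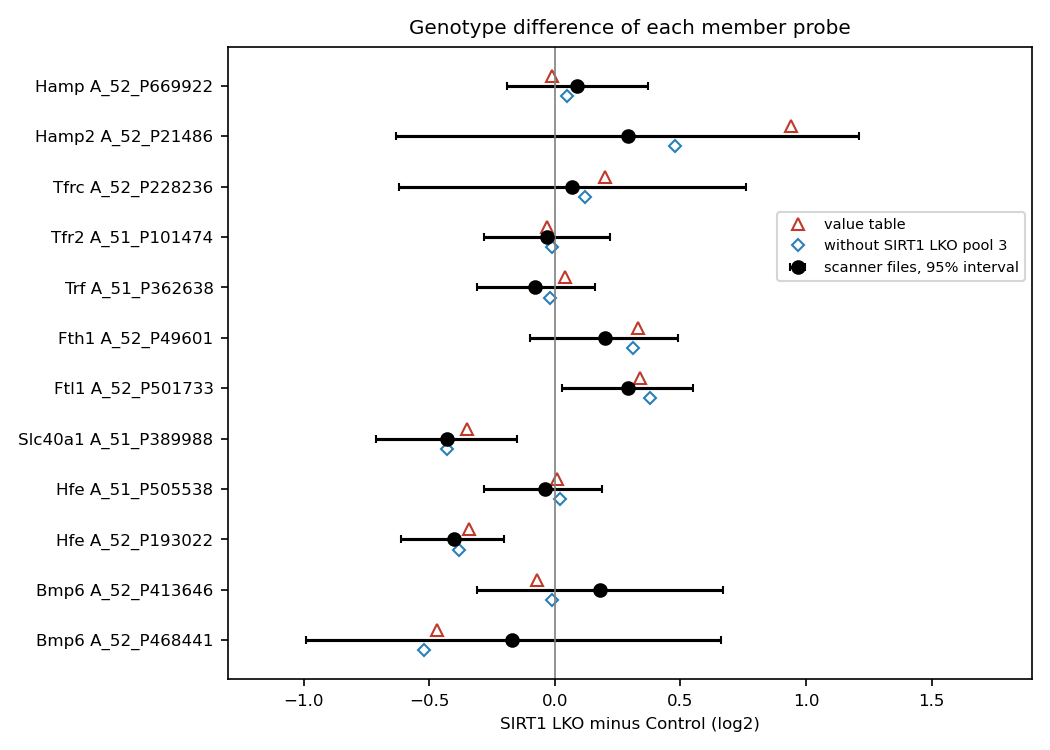
Genotype difference (SIRT1 LKO minus control, log2) of each of the 12 probes, as points with 95% intervals from limma for the scanner files, with the estimate from the value table as triangles and that without LKO pool 3 as diamonds. The intervals of Ftl1, Slc40a1 and Hfe probe A_52_P193022 leave out 0 before adjustment, and 0 of the 12 probes passed after it.

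Iron carriage and uptake were read by Trf and Tfrc. Trf, plasma transferrin, lay at 8.34, 8.28 and 8.14 in LKO livers, against 8.29, 8.39 and 8.31 in control livers. The groups overlapped (difference -0.08, SE 0.10, adjusted p = 0.682), and the ratio of 0.95-fold had a 95% interval of 0.81 to 1.11. The value table put LKO pool 3 at 8.49 and the difference at 0.04. The coordinates of this probe span 616 bases on chromosome 9 for 60 bases of sequence, so it too crosses an intron.

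Tfrc, the receptor of dividing and iron-poor cells, was the 1 member printed 10 times on each array, which gives the spread between spots of 1 array. Its means over spots were -0.10, -0.48 and -0.43 in LKO livers, against -1.06, -0.15 and -0.01 in control livers. Control pool 1 stood below the other 5 pools. Control pool 2 lay below LKO pool 1 and above LKO pools 2 and 3, and control pool 3 was the highest. The 10 spots of 1 array spanned 0.12 to 0.23 log2 units on 5 arrays and 0.56 in control pool 1, where the highest spot, at -0.79, was still below the lowest spot of any other array, at -0.56. The spots of the other control pools overlapped each other. A pool and its array, with labelling and hybridisation, cannot be told apart here. The difference was 0.07 (SE 0.29, 95% interval -0.62 to 0.76, adjusted p = 0.912), and -0.26 without control pool 1 (adjusted p = 0.41). The value table put LKO pool 3 level with control pool 3 and the difference at 0.20. Without LKO pool 3 the difference was 0.12. Erythroid markers, read because red cell precursors carry the receptor, had 6 tested of 10 and 0 past the threshold. Their list means were -0.14 to 0.04 in LKO pools and -0.11 to 0.09 in control pools. These means hide markers that went opposite ways. The groups did not overlap for 3 of the 6, 1 above and 2 below, where 28.8% of all tested probes did not overlap.

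**Figure D3:**
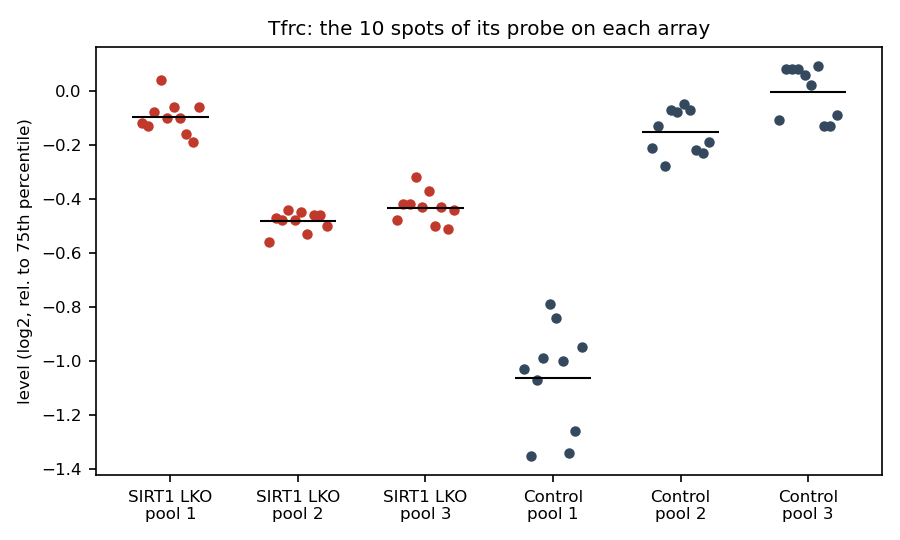
Level of the 10 spots of the Tfrc probe on each array (log2 of the intensity over that array's 75th percentile, lines are means over spots), with SIRT1 LKO pools left and control pools right. The spots of control pool 1 lie between -1.35 and -0.79, below those of the other 5 arrays.

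Other genes around hepcidin were read from 3 textbook lists. Of 22 tested BMP-SMAD regulators 0 passed, with 14 estimates higher and 8 lower in LKO livers and a median difference of 0.13, against 0.02 over all tested probes. In 6 of them the LKO values lay wholly above the controls and in 0 wholly below, where 14.9% and 13.9% of all tested probes did so. Smad7, the inhibitory SMAD of this pathway, lay at 0.63, 0.66 and 0.53 in LKO livers, against 0.03, -0.10 and 0.29 in control livers, 1.45-fold higher (difference 0.53, SE 0.12, adjusted p = 0.107). Id2, an inhibitor of basic helix-loop-helix factors, differed by 0.52 (adjusted p = 0.138), and a second Id2 probe by 0.11. Furin, the protease that processes prohepcidin, differed by 0.35 (adjusted p = 0.156). These 3 had the smallest p of the list. The value table gave a list median of 0.03, and the fit that left out LKO pool 3 gave 0.09.

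Inflammatory regulators and acute phase genes had 16 tested of 17, of which 0 passed, 9 estimates were higher and 7 lower, and the median difference was 0.03. The value table put this median at 0.07, and the list mean of LKO pool 3 at 3.82 where the scanner file gave 3.33. Without that pool the median was 0.03. Lcn2, a siderophore-binding protein of the acute phase, was dim, at -2.13, -2.96 and -2.69 in LKO livers, against -3.52, -3.25 and -3.25 in control livers. The groups did not overlap, and the ratio of 1.67-fold (difference 0.74) had an adjusted p of 0.141. Over all tested probes, 14.9% lay wholly above in this way. In this list the groups did not overlap for 3 of the 16 genes, 1 above and 2 below, where 28.8% of all tested probes did not overlap. With the value table the difference was 1.03 (adjusted p = 0.0968), and without LKO pool 3 it was 0.79. The other acute phase genes of the list differed by -0.29 to 0.18, and with the value table by 0.04 to 0.98. Stat3, the factor through which IL-6 acts on Hamp, differed by -0.27 (adjusted p = 0.261), with a second probe at 0.14. The value table put the first Stat3 probe at -0.17. Cebpa, a hepatocyte factor that activates Hamp, differed by -0.25 (adjusted p = 0.276), with a second probe at -0.36.

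Iron uptake, storage, export and sensing genes outside the 10 had 28 tested of 30, of which 0 passed, with 15 estimates higher and 13 lower and a median of 0.02. In 11 of them the groups did not overlap, 6 above and 5 below, where 28.8% of all tested probes did not overlap. Slc39a14, the transporter ZIP14 that brings non-transferrin iron into hepatocytes, lay at 2.76, 2.69 and 2.78 in LKO livers, against 2.16, 2.05 and 2.31 in control livers (1.48-fold higher, SE 0.10 on the log2 scale, adjusted p = 0.082). Its second probe differed by 0.06, so the 2 probes of this gene disagreed. Fbxl5, the iron-sensing ubiquitin ligase subunit that marks iron regulatory protein 2 for degradation, lay at 1.02, 0.89 and 0.68 in LKO livers, against 0.32, 0.26 and 0.25 in control livers (difference 0.59, adjusted p = 0.087). The other Fbxl5 probes differed by 0.63 and 1.12, the same sign as the first. Ftmt, mitochondrial ferritin, was dim, at -4.15, -3.81 and -4.18 in LKO livers, against -3.30, -3.35 and -3.43 in control livers. It differed by -0.69 (adjusted p = 0.082), and the value table gave -0.38 (adjusted p = 0.31). With the value table Slc39a14 and Fbxl5 differed by 0.44 and 0.50.

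**Figure D4:**
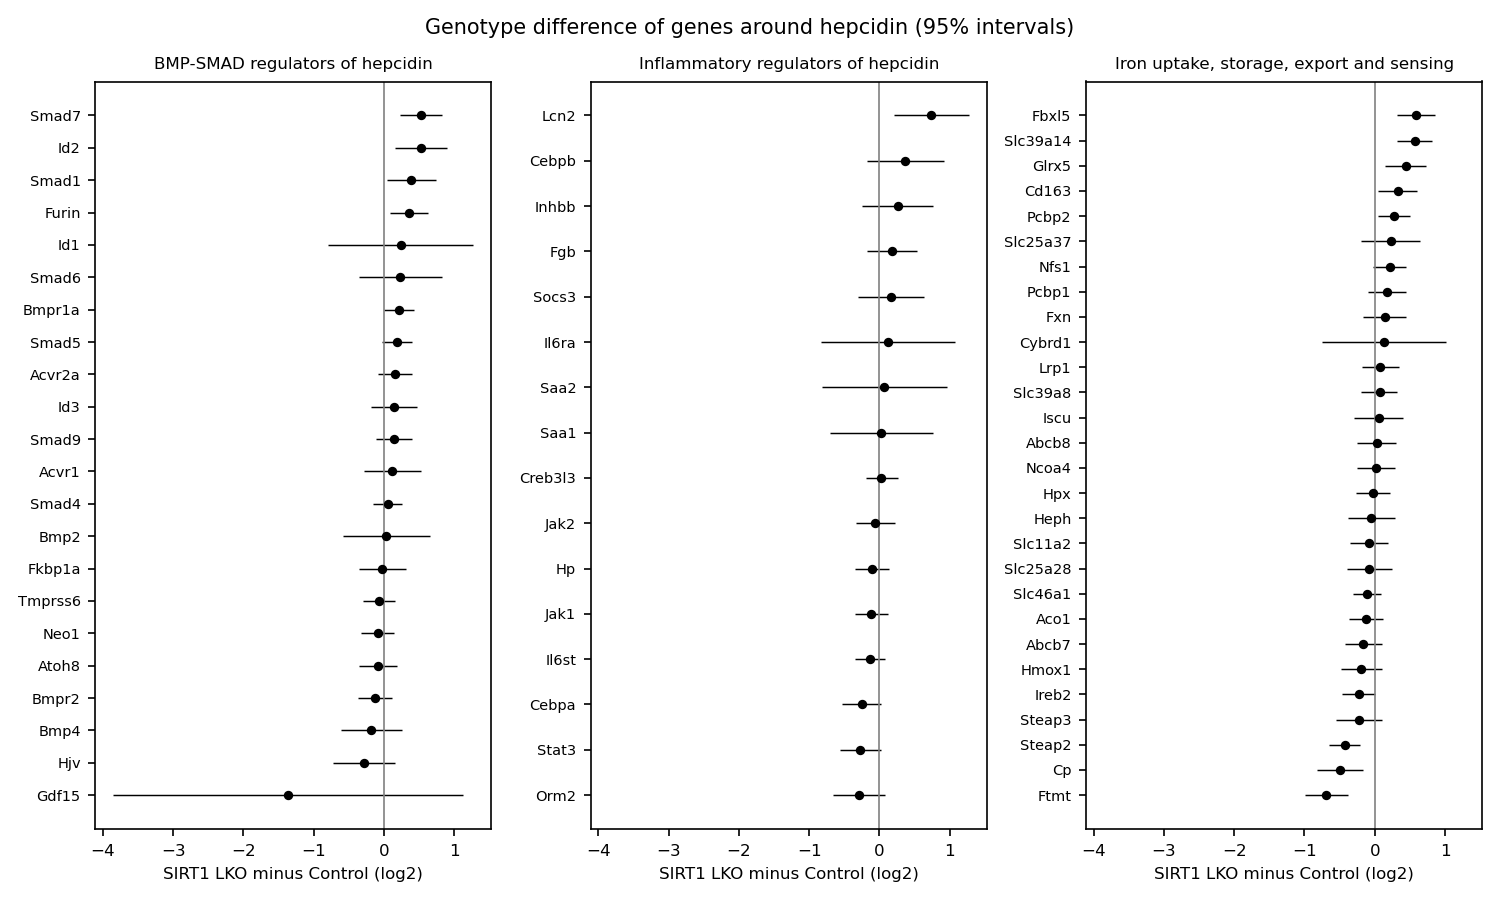
Genotype difference (SIRT1 LKO minus control, log2, points with 95% intervals from limma) of each tested gene of the 3 lists, ordered by its estimate within a list. Lists are shown side by side on 1 scale, and 0 genes of any list passed the adjusted threshold.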

How the data were processed

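Scanner files deposited by the authors give a processed spot intensity, from which background and spatial trend had been removed array by array, per the file headers. Agilent Feature Extraction 9.5 is named in the submitters' processing notes. A table of 1 intensity per probe and array was deposited as well, and the series' design text names the Rosetta Resolver error model. From 500 ng of RNA, Cy3-labelled cRNA was made, per the labels.

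Control spots were left out, outlier spots set missing and spots of 1 probe averaged after log2, and each array was set relative to its own 75th percentile. Tested were probes well above background, in at least 50% of its spots, on all 3 arrays of either group (23593 probes). The number of arrays limits the precision. Each probe was fitted in limma 3.58.1 (R 4.3.3; lmFit and eBayes, genotype only), two-sided, with Benjamini-Hochberg adjustment over all tested probes and a threshold of 0.05. The fit was also run on simulated data, with noise independent between arrays and added changes larger than the member differences seen here. That run does not bear on differences of the size reported. Accessions matched 22951 of 41174 probes to RefSeq symbols (GRCm38.p6), and promoters are from RefSeq. In a list, the tested probe with the highest mean stood for its gene. Named are the 10 members with every probe, list genes past the threshold, the 3 with the smallest p per list, and the 5 genes most like Hamp. The Ftl2 and Fthl17e probes, the Hfe probe gap and the genes of the closing observations were chosen after their values were seen. Members and lists were chosen with earlier results of these data known. List symbols absent from the reference table were dropped. Figures were drawn with matplotlib 3.10.9.

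The pools were not treated as paired by their shared replicate numbers. Deviations from the group means correlated by 0.009, -0.043 and -0.093 between same-numbered pools over 23546 probes. Between differently numbered pools the range was -0.08 to 0.129. With 3 pools a group this check cannot tell whether the pools were paired.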

Additional observations from a re-analysis of the deposited data

How the results depend on the processing

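In each of the 17 alternatives, 0 genes of the 3 lists and 0 of the member probes that it tested passed in limma. Hfe probe A_52_P193022 was tested in 16 and Bmp6 probe A_52_P468441 in 15. The 15 probes called over the whole array became 0 with normexp background correction, 0 with no filter on dim probes, 0 with the slide as a random block and 0 with the replicate block, and 49 with only probes above background on all 6 arrays, 24 with 1 probe a gene, 308 with the value table and 91 with an intensity trend and robust variance. Leaving out 1 pool gave 0 to 3. At an unadjusted p under 0.05 the fits with 0 calls held 1563 to 7200 probes. With 0 member probes called as reported, the slide block had no member call to remove. It raised the adjusted p in limma to 0.428 for Slc40a1 and to 0.364 for Hfe probe A_52_P193022. Ftl1, Fth1, Hamp2, Slc40a1 and Hfe probe A_52_P193022 kept their sign in every alternative that tested them, over 0.05 to 0.38 for Ftl1 and 0.08 to 0.33 for Fth1, both lowest with normexp, 0.01 (without control pool 3) to 0.94 for Hamp2, -0.57 to -0.35 for Slc40a1 and -0.42 to -0.27 for the Hfe probe. The other members changed sign, Hamp to -0.07 with normexp and -0.01 with the value table, Trf to 0.04 with the value table, Hfe probe A_51_P505538 to 0.01 with normexp, to 0.01 with the value table and, LKO pool 3 left out, to 0.02, and Bmp6 probe A_52_P413646 to -0.07 with the value table and to between -0.01 and 0.30 with 1 pool left out. Left-out pools moved Tfrc to between -0.26 and 0.27 and Tfr2 to between -0.09 and 0.03. Bmp6 probe A_52_P468441 was at 0.31 with normexp and between -0.52 (without LKO pool 3) and 0.07 (without control pool 1) with 1 pool left out. Normexp put the genotype difference of the Hfe probe gap at -0.28 instead of -0.36. For the gap between the Bmp6 probes, whose groups overlapped as reported, it gave -0.03 instead of -0.35. The cause was not tested. The dim signal of Bmp6 probe A_52_P468441 limits what it can show.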

Other observations

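For LKO pool 3 the deposited value table and the scanner file differed widely in genes around hepcidin, chosen here after their values were seen. Saa1, an acute phase protein, stood at 5.99 in the value table and at 3.57 in the scanner file, where the other LKO pools had 4.77 and 4.52 and the control pools 4.36, 4.11 and 4.30. Gdf15, a stress cytokine, stood at 0.79 and -3.08 in the same order, with 0.81 and 0.32 in the other LKO pools and -0.25, 1.02 and 1.36 in the control pools. Hmox1, which releases iron from heme, stood at 2.15 and 1.03, with 1.02 and 1.35 in the other LKO pools and 1.27, 1.37 and 1.32 in the control pools. In Gdf15 the scanner value was below the 5 other pools. In Saa1 the table's value was above those pools and the scanner value below them, and in Hmox1 the table's value was above them.

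The probe of Fthl17e, a ferritin heavy chain-like gene of the X chromosome, lay at -5.30, -4.92 and -4.58 in LKO livers, against -3.55, -3.36 and -3.23 in control livers, and was well above background on all 6 arrays. The difference was -1.55 (limma adjusted p = 0.0654, past no threshold). For this probe no estimate with the value table or without LKO pool 3 is given, so its dependence on that pool is not shown. All 3 LKO values were below the controls, as for 13.9% of all tested probes. This probe was dim, with levels near those of Bmp6 probe A_52_P468441. Cp, the ferroxidase ceruloplasmin, lay at 5.50, 5.61 and 5.96 in LKO livers, against 6.17, 6.23 and 6.17 in control livers (difference -0.50, adjusted p = 0.13). For Cp the value table gave -0.45, and leaving out LKO pool 3 gave -0.63.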
